A study of Mus musculus with 24 samples.

Results

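The genes described here encode the nuclear subunits of respiratory complexes II, III, IV and V and cytochrome c in the mouse heart. They were chosen by symbol: every annotated gene starting Sdh (a to d), Uqcr, Cyc1, Cycs, Cox4 to Cox8 or Atp5, with the brightest probe set standing for each gene. This gave 48 of the 14763 genes tested, 4 in complex II, 9 in complex III, 1 for cytochrome c, 17 in complex IV and 17 in complex V. All 48 passed the filter on low signals. *Cox7b* and the mitochondrially encoded subunits of these complexes were not analysed here, so the text is about nuclear genes throughout.

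Complex II oxidises succinate, complex III passes the electrons on to the mobile carrier cytochrome c, complex IV (cytochrome c oxidase) hands them to oxygen, and complex V (ATP synthase) uses the proton gradient built on the way to make ATP. Cardiac muscle is packed with mitochondria and takes most of its ATP from this chain. Several complex IV subunits exist as a heart and skeletal muscle isoform beside a more general isoform, and subunit c of the ATP synthase ring is encoded by 3 genes, *Atp5g1*, *Atp5g2* and *Atp5g3*, that give the same mature protein.

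RNA of whole hearts from FVB/N mice was hybridised to 24 Affymetrix arrays, 4 in each of 6 groups. Ntg mice were nontransgenic, dnPI3K mice carried a dominant negative phosphoinositide 3-kinase transgene (reduced activity, called cardiac-specific in the design) and caPI3K mice carried a constitutively active one (increased activity, expressed in the heart per the labels). The sources used here give neither the promoters nor the number of founder lines. Operations, either sham or to cause a myocardial infarction (MI), were done in mice aged 4 months, and the hearts were collected after 8 weeks. The design sets MI against sham in each genotype and then compares the 3 MI effects.

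On every array the 8 cardiomyocyte markers were bright, with a summed signal between 329937 and 495633. Of the respiratory genes, 43 were bright as well, with a mean log2 signal above 12, and 31 lay above the 99th percentile of all genes tested. The other 5 had dim probe sets, namely *Cox4i2* (mean log2 signal 7.15), *Cox6b2* (6.89), *Cox7b2* (6.59), *Cox7c* (7.54) and *Cox8c* (9.01). The upper end of the signal differed from array to array, and the cause was not tested. The 99th percentile ran from 15717.7 to 20368.6, and the highest values belonged to Ntg sham 1, Ntg sham 2 and dnPI3K sham 1. Every result is therefore given on 2 scales, the log2 signal and the log2 signal relative to equally bright genes, which takes away on each array the median deviation of the 200 genes nearest in mean signal. Those 200 genes were a median of 0.453 log2 units dimmer than the gene they served, because few genes are as bright, so the relative scale takes away most but perhaps not all of a shift of bright genes. P-values measure the spread between arrays, since the labels do not state that each array is a separate animal. In whole-heart RNA, fewer cardiomyocytes and less RNA per cardiomyocyte cannot be told apart.

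The sequences just before the start sites of 6 of these genes are shown because the results turn on them: *Sdhd*, *Atp5g2*, *Atp5e*, *Cox7a1* and *Cox8b*, which were lower after MI in dnPI3K hearts, and *Cox6a1*, which moved the other way on the relative scale. Each is the 250 bases before the start, 5′ to 3′ on the gene's own strand, from RefSeq on GRCm38.p6. Capitals mark matches, on either strand, to the motif of nuclear respiratory factor 1 (NRF1: GCGC, then A and any base, then GCGC) or of the GA-binding protein (GABP, CCGGAAG), both known as activators of many respiratory genes.
Sdhd, chr9:50603850-50604099, minus strand: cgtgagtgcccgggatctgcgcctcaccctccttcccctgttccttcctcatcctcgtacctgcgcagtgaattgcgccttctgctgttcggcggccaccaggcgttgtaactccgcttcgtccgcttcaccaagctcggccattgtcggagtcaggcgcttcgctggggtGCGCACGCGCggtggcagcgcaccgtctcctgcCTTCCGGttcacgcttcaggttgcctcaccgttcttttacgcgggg
Atp5g2, chr15:102671048-102671297, minus strand: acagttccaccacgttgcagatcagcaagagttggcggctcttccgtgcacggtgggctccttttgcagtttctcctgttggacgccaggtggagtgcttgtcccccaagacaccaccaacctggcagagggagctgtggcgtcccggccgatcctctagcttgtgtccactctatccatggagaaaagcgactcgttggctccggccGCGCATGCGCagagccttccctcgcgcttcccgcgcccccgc
Atp5e, chr2:174464102-174464351, minus strand: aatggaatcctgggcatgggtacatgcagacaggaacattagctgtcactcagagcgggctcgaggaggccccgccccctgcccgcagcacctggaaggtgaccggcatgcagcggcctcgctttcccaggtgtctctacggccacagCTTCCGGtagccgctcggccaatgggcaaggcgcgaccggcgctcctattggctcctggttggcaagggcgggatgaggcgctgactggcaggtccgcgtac
Cox6a1, chr5:115348959-115349208, minus strand: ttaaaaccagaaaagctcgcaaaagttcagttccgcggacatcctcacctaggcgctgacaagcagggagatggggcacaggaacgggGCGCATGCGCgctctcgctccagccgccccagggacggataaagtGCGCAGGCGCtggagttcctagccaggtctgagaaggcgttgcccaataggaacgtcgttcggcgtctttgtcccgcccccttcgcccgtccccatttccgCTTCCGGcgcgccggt
Cox7a1, chr7:30183921-30184170, plus strand: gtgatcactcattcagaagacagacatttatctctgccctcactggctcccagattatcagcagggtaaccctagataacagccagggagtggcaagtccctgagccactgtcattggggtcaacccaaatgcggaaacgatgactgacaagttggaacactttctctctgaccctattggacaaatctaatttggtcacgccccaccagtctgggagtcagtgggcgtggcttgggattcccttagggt
Cox8b, chr7:140900447-140900696, minus strand: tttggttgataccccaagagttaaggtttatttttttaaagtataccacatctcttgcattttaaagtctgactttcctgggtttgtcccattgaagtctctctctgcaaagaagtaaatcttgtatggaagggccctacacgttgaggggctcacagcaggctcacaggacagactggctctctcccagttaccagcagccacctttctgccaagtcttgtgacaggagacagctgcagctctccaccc

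In these windows the NRF1 motif stood at -79 to -70 in *Sdhd*, at -42 to -33 in *Atp5g2* and at both -162 to -153 and -117 to -108 in *Cox6a1*. The GABP motif stood at -46 to -40 in *Sdhd*, at -102 to -96 in *Atp5e* and at -16 to -10 in *Cox6a1*. The windows of *Cox7a1* and *Cox8b*, the 2 muscle isoform genes, held neither. Over the 36 members with a window in the RefSeq set, the NRF1 motif was found in 6 (16.7%), against 3.74% of all 32851 windows, and the GABP motif in 8 (22.2%), against 6.91%. The motif of the oestrogen-related receptors (T, any base, then AAGGTCA) was found in 1 of the 36 (2.78%, against 1.14%) and that of MEF2 (CTA, any 4 bases, then TAG) in 1 (2.78%, against 3.20%). A match describes letters only. Genes on both sides of the relative change, *Sdhd* and *Cox6a1*, held both motifs.

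Across the 6 groups, the respiratory genes were highest in Ntg and dnPI3K sham hearts and lowest in dnPI3K hearts after MI. On each array the median deviation of the 48 genes from their own means was taken. It was 0.34, 0.30, 0.01 and 0.05 on the Ntg sham arrays, and -0.10, -0.04, -0.02 and -0.07 on the Ntg MI arrays. In dnPI3K hearts it was 0.36, 0.12, 0.05 and 0.11 after sham and -0.13, -0.24, -0.11 and -0.18 after MI. Both pairs of groups were separate, but the sham values were spread more widely, with Ntg sham 1 and 2 and dnPI3K sham 1 far above the others. In caPI3K hearts it was 0.01, -0.07, -0.05 and -0.01 after sham and -0.04, 0.02, -0.22 and -0.06 after MI, so these groups overlapped. The mean over arrays ran from 0.175 in Ntg sham, 0.160 in dnPI3K sham, -0.029 in caPI3K sham, -0.059 in Ntg MI and -0.075 in caPI3K MI to -0.163 in dnPI3K MI. The 3 groups in the middle of this order lay closer together than the spread within them. The group with the lowest mean was dnPI3K MI for 40 of the 48 genes, and for 26 on the relative scale.

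**Figure D1:**
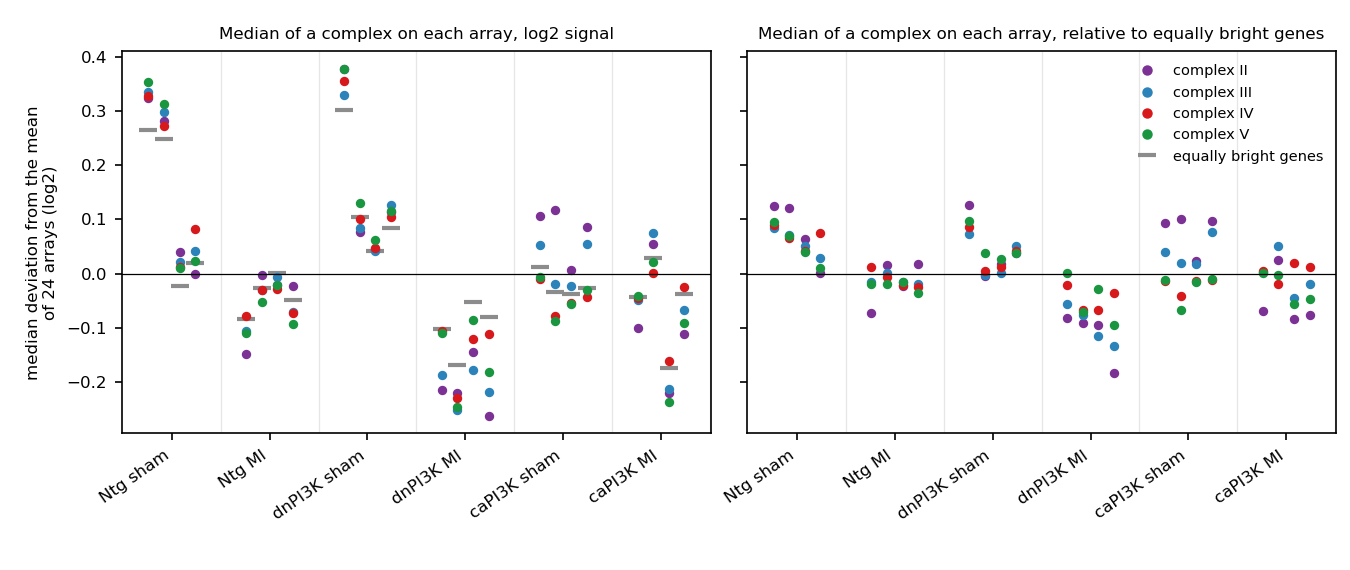
Median deviation of the genes of each complex from their own 24-array mean, on every array, by group; the left plot gives the log2 signal with the median of equally bright genes as grey bars, the right plot the values relative to those genes. On the left, 3 sham arrays (Ntg sham 1 and 2, dnPI3K sham 1) stand high together with the equally bright genes. Group means are not drawn, but the mean of the dnPI3K MI arrays is lowest there for each complex. In the median of all 48 genes, also not drawn, caPI3K MI 3 lies below 3 of the dnPI3K MI arrays. On the right the spread shrinks, and the dnPI3K MI mean stays lowest for complexes II to V. Cytochrome c is not drawn, and on the relative scale its mean is not lowest in dnPI3K MI hearts.

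The arrays that stood high did so for other bright genes too. On Ntg sham 1, Ntg sham 2 and dnPI3K sham 1 the equally bright genes were 0.265, 0.248 and 0.303 above their means, and the cardiomyocyte markers 0.36, 0.25 and 0.35. After these shifts were taken away, the 48 genes were still 0.09, 0.07 and 0.09 above their means on these arrays. All 3 belong to the 4 arrays numbered 415 to 418, which are all sham arrays (2 Ntg, 2 dnPI3K), and the sources used here do not say what else those numbers mark. Counts and medians that move without them are given with and without them.

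In nontransgenic hearts, MI went with slightly lower signals of nearly all respiratory genes, and no single gene passed the test. Of the 48 genes, 47 were lower after MI, with a median change of -0.23 on the log2 scale (14.8% lower), against -0.00 over all genes. The size of this median rested on few arrays and on the normalization: it was -0.08 without arrays 415 to 418 and -0.05 after quantile normalization. None was called at an adjusted p below 0.05 (limma, Benjamini-Hochberg over 14763 genes), where 0.772% of all genes were called, and 37 had an unadjusted p under 0.05. The largest of the bright changes were *Atp5e*, the epsilon subunit of the F1 head, at -0.33 (SE 0.108, adjusted p = 0.17), *Uqcrc1*, a core protein of complex III, at -0.32 (SE 0.0845, adjusted p = 0.0728), and *Cox8b*, the muscle isoform of complex IV subunit 8, at -0.31 (SE 0.0786, adjusted p = 0.056).

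*Cox8b* read 15.53, 15.58, 15.23 and 15.26 in Ntg sham and 15.07, 15.10, 15.16 and 15.00 in Ntg MI hearts, without overlap. In 17 of the 48 genes the Ntg groups did not overlap, all of them lower after MI, as for 2.5% of all genes. By complex, the median change was -0.21 for complex II, -0.23 for III, -0.24 for IV and -0.24 for V, so the complexes had similar medians. Relative to equally bright genes the median was -0.07 (-0.13 with the 500 nearest genes), none was called (0.908% of all genes were) and 11 had an unadjusted p under 0.05. Non-members above the 99th percentile of signal had a median change of -0.20, close to the -0.23 of the respiratory genes in that band. Of the cell type markers fixed for whole hearts, 2 of 7 fibroblast markers (median 0.34) and 1 of 3 mesothelial markers (median 0.35) were called higher in the same hearts (0.677% of all genes were). The cardiomyocyte markers had a median of -0.24 with none of 8 called, and the part of these shifts was not tested. In the median of the 48 genes, Ntg sham 3 and Ntg sham 4 were both lower than Ntg sham 1 and 2. Without Ntg sham 4, 18 were called lower (2 on the relative scale), and without Ntg sham 3, 1 was called.

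In dnPI3K hearts, respiratory genes of all 4 complexes fell after MI. Of the 48 genes, 33 were called lower and 0 higher, where 9.37% of all genes were called, 4.19% higher and 5.18% lower. The median change was -0.32 (20.0% lower), against 0.01 over all genes. It was -0.25 without arrays 415 to 418 and -0.10 after quantile normalization. By complex, the genes called lower were 4 of 4 in complex II, 8 of 9 in complex III, 8 of 17 in complex IV and 13 of 17 in complex V, and cytochrome c (*Cycs*, -0.21, adjusted p = 0.104) was not called. In 36 genes the dnPI3K groups did not overlap, all lower after MI, as for 7.1% of all genes.

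**Figure D2:**
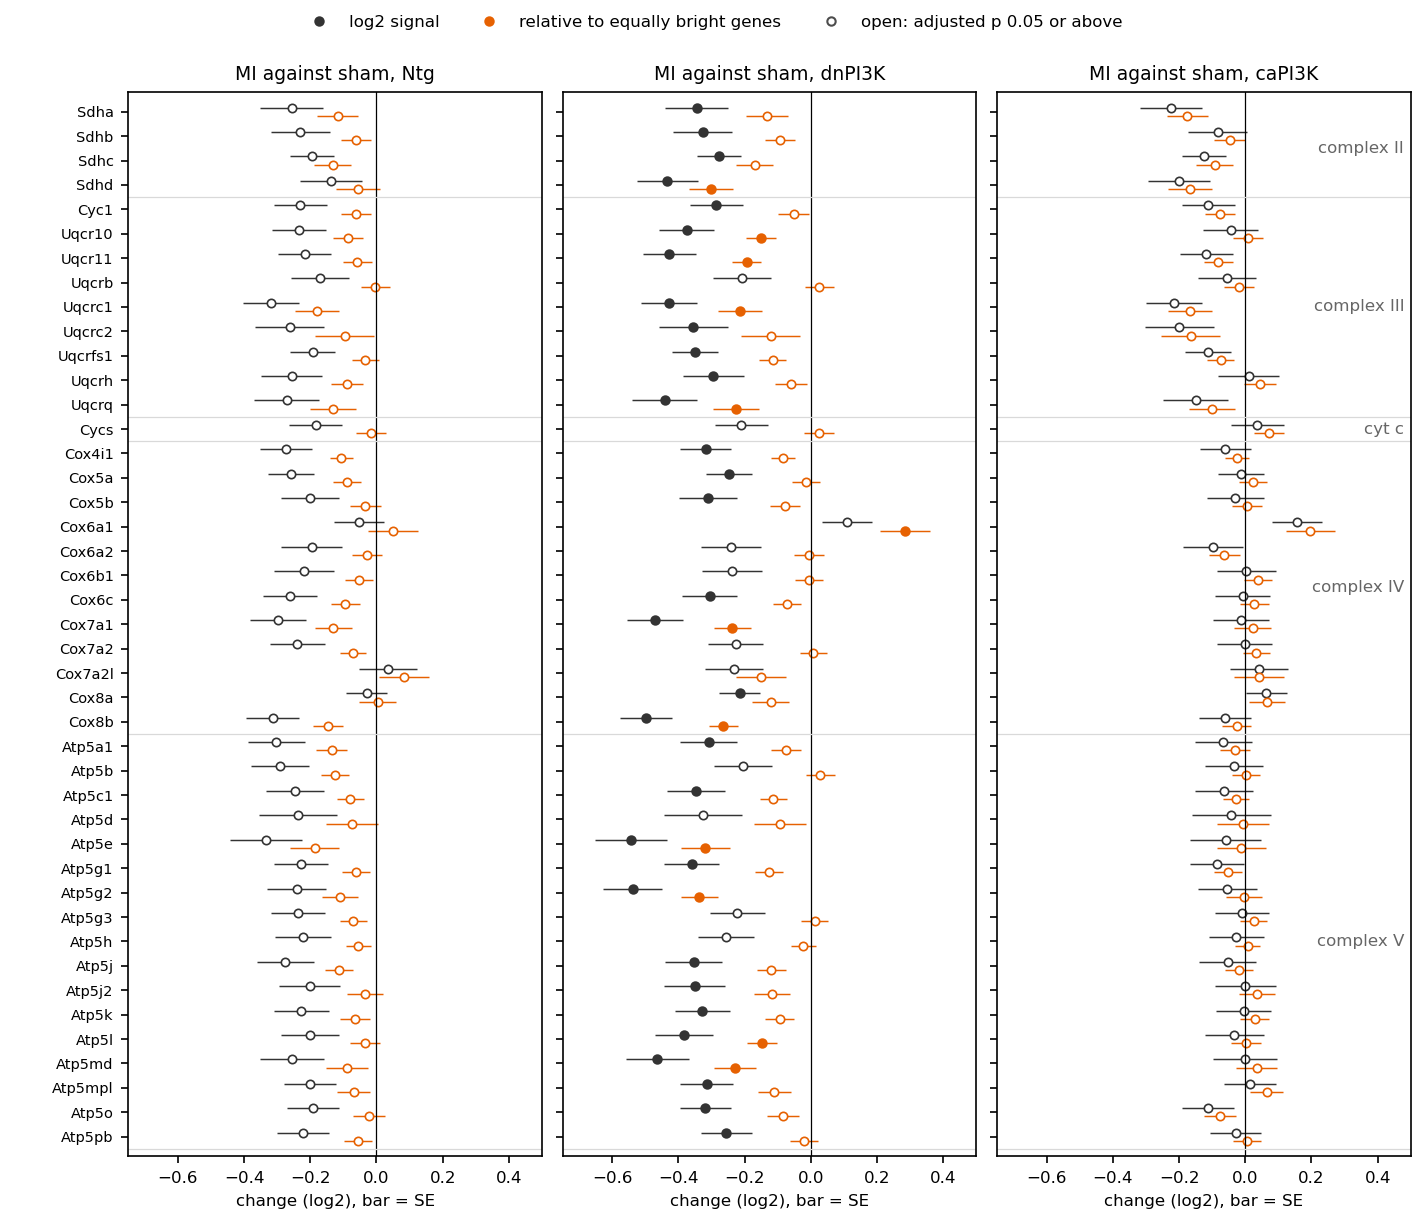
Change after MI (log2, MI minus sham, bars are standard errors of the model) of the respiratory genes in Ntg, dnPI3K and caPI3K hearts, on the log2 scale (dark) and relative to equally bright genes (orange); filled points have an adjusted p below 0.05. The dnPI3K plot holds all the filled points, with *Cox8b*, *Cox7a1*, *Atp5e* and *Atp5g2* among the lowest, and the caPI3K points lie around 0.

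Complex II feeds electrons from succinate, and all 4 of its genes fell. *Sdhd*, a membrane anchor, read 14.18, 13.96, 13.87 and 13.97 in dnPI3K sham hearts and 13.60, 13.48, 13.69 and 13.48 after MI. Every MI array was below every sham array, and the change was -0.43 (SE 0.0927, adjusted p = 0.00318), with -0.30 relative to equally bright genes (adjusted p = 0.00428). *Sdha*, the flavoprotein that holds the succinate site, read 14.76, 14.43, 14.41 and 14.50 after sham and 14.15, 14.23, 14.27 and 14.06 after MI. These groups did not overlap either, with dnPI3K sham 1 the highest, and the change was -0.34 (SE 0.0949, adjusted p = 0.0198). The relative change was -0.13 (adjusted p = 0.218), and without dnPI3K sham 1 the log2 change was -0.27 and no longer called. The iron-sulphur subunit *Sdhb* changed by -0.33 (adjusted p = 0.0187) and the other anchor *Sdhc* by -0.28 (adjusted p = 0.00779), neither called on the relative scale.

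Complex III had the largest share of called genes after complex II. *Uqcr11*, a small subunit, read 15.13, 14.81, 14.86 and 14.89 in dnPI3K sham and 14.56, 14.44, 14.55 and 14.42 in dnPI3K MI hearts. It was lower on all 4 MI arrays, by -0.43 (SE 0.0801, adjusted p = 0.000996), and by -0.19 relative to equally bright genes (adjusted p = 0.00524). *Uqcrq*, another small subunit, read 14.68, 14.37, 14.67 and 14.38 after sham and 14.14, 14.01, 14.15 and 14.04 after MI. It had 2 high and 2 low sham arrays, all above the MI arrays, and its change was -0.44 (SE 0.0984, adjusted p = 0.00436) and -0.23 on the relative scale (adjusted p = 0.0409). With the mean of all its 4 probe sets in place of the brightest, the change of *Uqcrq* was -0.23 and not called.

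*Uqcrc1*, a core protein, read 14.60, 14.26, 14.38 and 14.43 after sham and 13.94, 14.08, 14.10 and 13.83 after MI. All MI arrays were lower, the change being -0.43 (SE 0.0845, adjusted p = 0.00158), or -0.21 relative to equally bright genes (adjusted p = 0.0454). Another small subunit, *Uqcr10*, changed by -0.37 (adjusted p = 0.00398) and by -0.15 on the relative scale (adjusted p = 0.0362). With 1 array left out in turn, the relative calls of *Uqcrq* and *Uqcrc1* were each kept in 3 of 8 fits and that of *Uqcr10* in 4. The remaining genes of this complex called on the log2 scale were *Uqcrfs1* (-0.35), *Cyc1* (-0.29), *Uqcrc2* (-0.36) and *Uqcrh* (-0.29). They encode the Rieske protein, cytochrome c1, the other core protein and the hinge protein, and none was called on the relative scale. *Uqcrb*, at -0.21, did not pass on either scale (adjusted p = 0.149 on the log2 scale).

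In complex IV, muscle isoforms can be set beside general isoforms of the same subunit. *Cox8b*, the muscle isoform of subunit 8, read 15.53, 15.22, 15.28 and 15.26 in dnPI3K sham and 14.93, 14.75, 14.84 and 14.78 in dnPI3K MI hearts. The groups were well apart, and the change of -0.50 (SE 0.0786, adjusted p = 0.000242) had the smallest adjusted p of the 48 genes; relative to equally bright genes it was -0.26 (adjusted p = 0.000388). The general isoform *Cox8a* changed by -0.21 (adjusted p = 0.0259), and by -0.12 on the relative scale (adjusted p = 0.2). *Cox7a1*, the muscle isoform of subunit 7A, read 15.44, 15.10, 15.27 and 15.18 after sham and 14.92, 14.65, 14.83 and 14.69 after MI. It was lower on every MI array, by -0.47 (SE 0.0856, adjusted p = 0.000779), and by -0.24 on the relative scale (adjusted p = 0.00697). The general isoform *Cox7a2* changed by -0.23 (adjusted p = 0.0917) and by 0.01 relative to equally bright genes, while its second probe set changed by -0.37. *Cox7a2l*, related to subunit 7A and known for its part in supercomplexes, changed by -0.23 (adjusted p = 0.103). The differences between isoforms were not tested.

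Subunit 6A has a similar pair of isoforms. *Cox6a1*, the liver-type isoform, read 14.22, 13.98, 14.11 and 13.98 in dnPI3K sham and 14.15, 14.14, 13.99 and 14.45 in dnPI3K MI hearts, where the groups overlapped and dnPI3K MI 4 was highest. Its log2 change was 0.11 (SE 0.0755, adjusted p = 0.44). The relative values were 14.04, 13.94, 14.07 and 13.92 after sham and 14.27, 14.26, 14.04 and 14.53 after MI, still overlapping, and the gene rose by 0.28 (SE 0.0748, adjusted p = 0.0168), the only rise called among the 48. Without arrays 415 to 418, dnPI3K sham 2, dnPI3K sham 4 or dnPI3K MI 4 it was not called, and its second probe set changed by -0.01 on the log2 scale. The muscle isoform *Cox6a2* changed by -0.24 (adjusted p = 0.102) and by -0.01 on the relative scale, with a second probe set at -0.50.

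**Figure D3:**
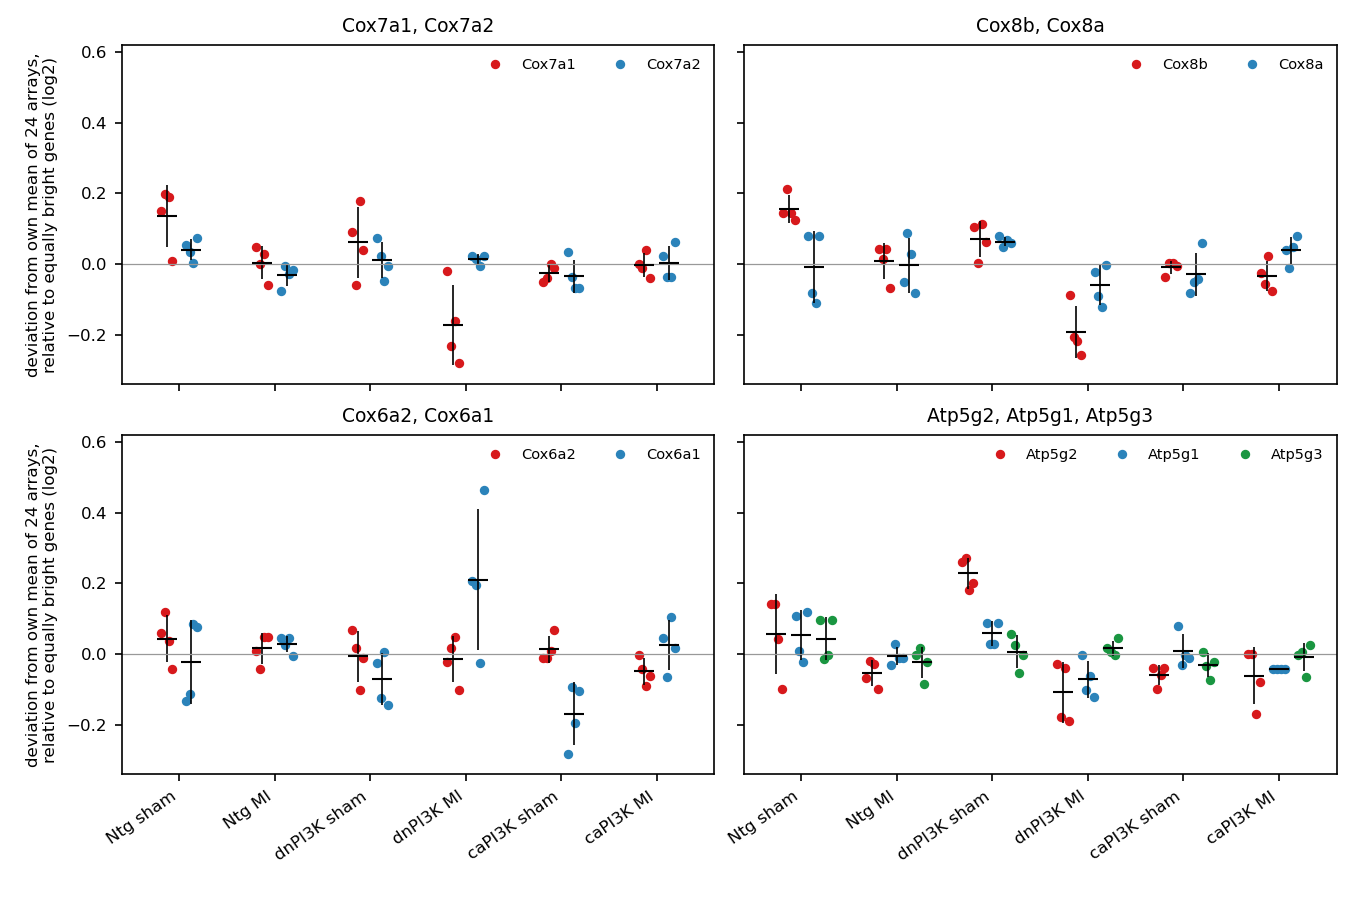
Isoforms of complex IV subunits and of ATP synthase subunit c, as the deviation of each gene from its own mean of 24 arrays relative to equally bright genes (log2), one point per array, by group. *Cox8b*, *Cox7a1* and *Atp5g2* are lowest in dnPI3K MI hearts, and *Cox6a1* is highest there, with array 4 at the top.

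Of the other complex IV genes, *Cox4i1*, the general form of the regulatory subunit 4, changed by -0.32 (adjusted p = 0.00891) and *Cox5a*, *Cox5b* and *Cox6c* by -0.25 to -0.31, all called on the log2 scale and not on the relative scale. *Cox6b1* changed by -0.24 (adjusted p = 0.101). *Cox7b2*, a testis isoform with a dim probe set, read 6.96, 6.99, 6.49 and 6.90 after sham and 3.95, 7.05, 4.72 and 5.26 after MI. The MI arrays were scattered and array 2 was above all sham arrays, so the called change of -1.59 (SE 0.422, adjusted p = 0.0158) came with overlapping groups, and without dnPI3K MI 1 it was -1.16 and not called. *Cox6b2*, *Cox4i2*, *Cox7c* and *Cox8c*, with mean signals of only 116 to 510, had changes of -0.57, -0.34, 0.01 and -0.16, none called (adjusted p from 0.373 to 0.991).

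In complex V, genes of the F1 head, the stalk and the membrane part were called together. *Atp5e*, the epsilon subunit of the head, read 14.96, 14.67, 14.66 and 14.67 in dnPI3K sham and 14.38, 14.12, 14.23 and 14.05 in dnPI3K MI hearts. All MI arrays were lower and dnPI3K sham 1 was highest; the change was -0.54 (SE 0.108, adjusted p = 0.00171), and -0.32 relative to equally bright genes (adjusted p = 0.0066). The other head subunits called were *Atp5a1* (-0.31) and *Atp5c1* (-0.35), and *Atp5b*, the catalytic beta subunit, changed by -0.20 without passing (adjusted p = 0.159), as did *Atp5d* by -0.33 (adjusted p = 0.0851). *Atp5b* was at 0.03 relative to equally bright genes.

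*Atp5g2*, one of the genes for subunit c of the rotating ring, read 14.70, 14.56, 14.44 and 14.50 after sham and 14.07, 13.91, 14.13 and 13.95 after MI. The groups were far apart, the change being -0.54 (SE 0.0895, adjusted p = 0.000338) and -0.34 relative to equally bright genes (adjusted p = 0.000336). With the mean of its 3 probe sets, of which the other 2 are dim, the log2 change was -0.20 and not called. The sister gene *Atp5g1* changed by -0.36 (adjusted p = 0.00505) and by -0.13 on the relative scale (adjusted p = 0.0641), and *Atp5g3* by -0.22 (adjusted p = 0.0948) and by 0.01. The small membrane-part proteins *Atp5md* (-0.46, adjusted p = 0.00248) and *Atp5l* (-0.38, adjusted p = 0.00584) were called on the relative scale as well, at -0.23 (adjusted p = 0.0209) and -0.15 (adjusted p = 0.04). With 1 array left out in turn, these relative calls were kept in 4 of 8 fits for *Atp5md* and in 2 of 8 for *Atp5l*.

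On the relative scale, 12 genes were called lower and 1 higher after MI in dnPI3K hearts (8.14% of all genes were called, 4.27% higher and 3.87% lower), and the median change of the 48 was -0.11 (7.61% lower). The 200 nearest genes could include complex I genes. With those left out as well this median was -0.14, and it was -0.16 with the 500 nearest genes. The 12 were *Sdhd*, *Uqcrc1*, *Uqcrq*, *Uqcr10*, *Uqcr11*, *Cox7a1*, *Cox7b2*, *Cox8b*, *Atp5e*, *Atp5g2*, *Atp5l* and *Atp5md*. Without arrays 415 to 418, 19 genes were called lower on the log2 scale, where 4.52% of all genes were called. On the relative scale 4 were then called lower, namely *Atp5g2*, *Cox7a1*, *Cox8b* and *Uqcr11*. These 4 were called on the relative scale also when any single array was left out and with 50 or 500 nearest genes. Without dnPI3K sham 1, 17 were called on the log2 scale and 8 on the relative scale, and 8 were called on the relative scale without dnPI3K MI 4. After quantile normalization 14 were called lower, among them all 12 of the relative scale, and *Cox6a1* was called higher (8.56% of all genes were called).

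**Figure D4:**
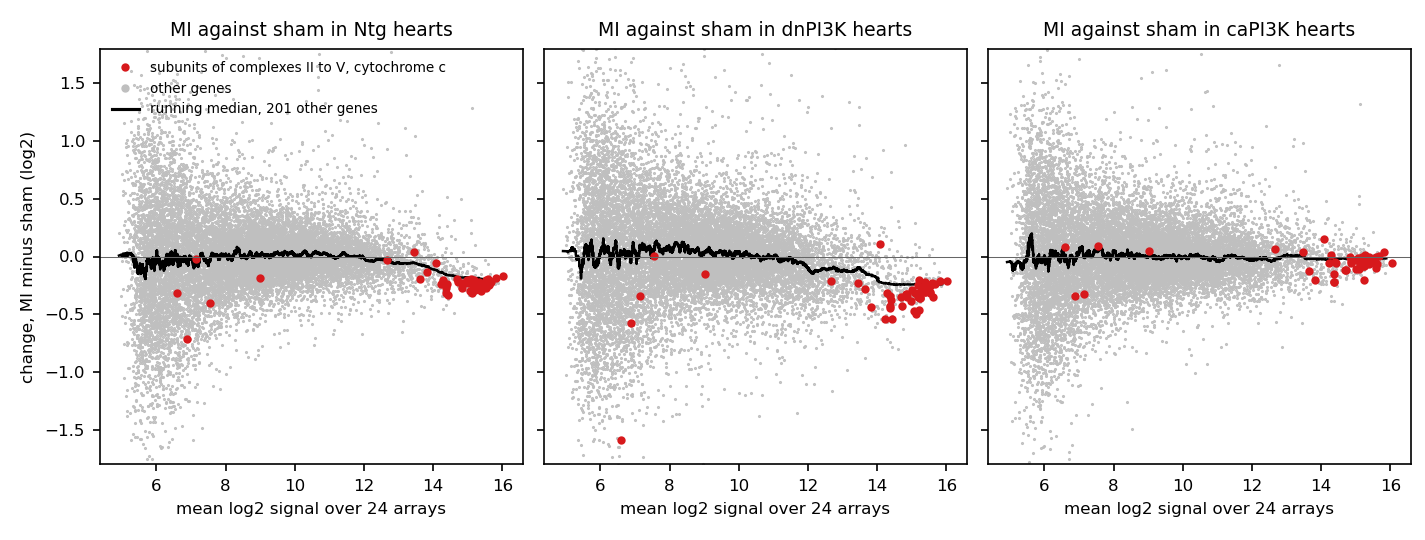
Change after MI (log2, MI minus sham) against mean log2 signal over 24 arrays for the respiratory genes (red), all other genes (grey) and the running median of those other genes (black) in each genotype; 19, 36 and 19 other genes lie beyond the plotted range of 1.8 either way. The running median bends down at the bright end in Ntg and dnPI3K hearts, and in dnPI3K hearts most red points lie below it.

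Other bright genes moved the same way by less. Non-members above the 99th percentile of mean signal had a median change of -0.24 in dnPI3K hearts, against -0.32 for the 31 respiratory genes in that band. In the band from the 98th to the 99th percentile the values were -0.23 and -0.43 (9 respiratory genes). The cardiomyocyte markers had a median of -0.23, with 1 of 8 called lower (*Tnni3*), and 0.00 on the relative scale, and their summed signal was 380371 to 495633 in dnPI3K sham and 340081 to 381850 in dnPI3K MI hearts. Of the fibroblast markers 3 of 7 were called higher (median 0.35, summed signal 68598.1 to 79266.5 after sham and 87752.4 to 105281 after MI), of the mesothelial markers 2 of 3 were higher and of the adipocyte markers 2 of 2 were lower (median -1.33). Of all genes, 4.19% were called higher and 5.18% lower. None of the 6 macrophage, 5 endothelial and 4 smooth muscle markers was called, and no marker was at 0 on any array. The part of these shifts in the changes of the respiratory genes was not tested.

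The partners of these subunits gave a mixed picture in dnPI3K hearts after MI. Among 32 assembly factors of complexes II to V, 8 were called lower and 1 higher, where 5.18% of all genes were called lower and 4.19% higher. Those called lower were *Cox16* (-0.69), *Cox10* (-0.31) and *Cox20* (-0.31) for complex IV, *Uqcc1* (-0.36) and *Uqcc2* (-0.37) for complex III, *Sdhaf4* (-0.39) for complex II, and *Atpaf1* (-0.30) and *Tmem70* (-0.40) for complex V. The one called higher was *Cox19* (0.44), a copper chaperone. On the relative scale, 7 were called lower and 1 higher (3.87% of all genes were called lower and 4.27% higher). The 9 genes that carry ATP, phosphate and phosphocreatine included 4 called lower, *Slc25a4*, *Slc25a3*, *Vdac3* and *Ckmt2*, by 0.24 to 0.30, and the dim *Ckmt1*, which rose by 0.90. None of the transport genes was called lower on the relative scale, and 2 were called higher. Of 13 transcriptional regulators, 2 were called lower. They were *Ppargc1a* (-0.64, adjusted p = 0.0354), the coactivator known for driving mitochondrial biogenesis, and *Tfam* (-0.34, adjusted p = 0.0034), which packages mitochondrial DNA and helps to start its transcription. *Nrf1* and *Gabpa* changed by -0.17 and -0.01 and were not called. Of the 44 complex I genes (Nduf symbols), 33 were called lower, with a median of -0.34, and 11 were called lower on the relative scale.

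In caPI3K hearts, no respiratory gene passed the test after MI and most changes were small. None of the 48 was called (1.11% of all genes were), 3 had an unadjusted p under 0.05, and the median change was -0.04 (2.92% lower). The median was -0.16 where the model set array numbers under 1000 apart, and 0.01 without caPI3K MI 3. *Eif2s3y*, a Y-linked gene, was above *Xist* on 3 of the 4 caPI3K sham arrays and on none of the other 21 arrays, so infarction and sex cannot be told apart in this comparison or in the differences built on it. Without those 3 arrays, which leaves a single caPI3K sham array, the median was -0.065 with none called. Relative to equally bright genes the median was -0.00, with none called (1.33% of all genes were) and 4 at an unadjusted p under 0.05. Complex II had the lowest median at -0.16, followed by complex III at -0.11, complex V at -0.03 and complex IV at -0.01. Non-members above the 99th percentile had a median of -0.01.

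Of the genes that fell most in dnPI3K hearts, *Cox8b* and *Atp5g2* had nearly flat values here, while *Uqcrc1* and *Sdhd* were lower without passing the test. *Cox8b* read 15.10, 15.08, 15.08 and 15.08 in caPI3K sham and 15.05, 15.09, 14.96 and 15.00 in caPI3K MI hearts, a change of -0.06 (SE 0.0786, adjusted p = 0.842). *Atp5g2* read 14.22, 14.15, 14.16 and 14.19 after sham and 14.20, 14.26, 13.93 and 14.11 after MI, a change of -0.05 (SE 0.0895, adjusted p = 0.886). Both pairs of groups overlapped, and caPI3K MI 3 was the low array in both. *Uqcrc1* read 14.54, 14.62, 14.55 and 14.53 after sham and 14.22, 14.47, 14.36 and 14.32 after MI. Its groups did not overlap, and its change of -0.22 (SE 0.0845, adjusted p = 0.253) had the smallest adjusted p of the 48 on the log2 scale. *Sdhd* was at -0.20 (adjusted p = 0.375), with overlapping groups. *Sdha* was at -0.22 (adjusted p = 0.314) and -0.18 on the relative scale (adjusted p = 0.185), the smallest adjusted p of these genes on the relative scale, and *Cox6a1* at 0.16 (adjusted p = 0.412) with groups that did not overlap. For *Cox6a1* the sham arrays read 13.80, 13.99, 13.86 and 13.96 and the MI arrays 14.09, 14.04, 14.05 and 14.04. Among the markers, 1 of 7 fibroblast (median 0.51) and 1 of 3 mesothelial markers were called higher in these hearts (0.853% of all genes were).

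The MI effects of the 3 genotypes were then set against each other, which is the test of whether one genotype's response differed. No gene was called in any of these differences (0% of 14763 on both scales), the respiratory genes included. The MI effect in dnPI3K minus that in Ntg hearts had a median of -0.09 over the 48 genes (-0.17 without arrays 415 to 418 and -0.05 after quantile normalization). At an unadjusted p under 0.05 were 5 of the 48, where 1122 of 14763 genes were. Relative to equally bright genes the median was -0.03 (-0.06 without arrays 415 to 418), with 7 at an unadjusted p under 0.05, where 1078 of 14763 genes were. On the relative scale the smallest p-values were those of *Atp5g2* at -0.22 (adjusted p = 0.613) and *Sdhd* at -0.25 (adjusted p = 0.656). The fall in dnPI3K hearts was thus not shown to be larger than the change in Ntg hearts.

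The MI effect in caPI3K minus that in Ntg hearts had a median of 0.20, with 6 genes at an unadjusted p under 0.05, where 817 of 14763 genes were. On the relative scale the median was 0.07 (0.04 without arrays 415 to 418), with 1 gene at an unadjusted p under 0.05, where 816 of 14763 were. The log2 median fell to 0.03 after quantile normalization, 0.04 without arrays 415 to 418 and 0.04 with the term for array numbers. Non-members above the 99th percentile of signal had a log2 median of 0.17, against 0.20 for the respiratory genes in that band. *Atp5b* stood at 0.13 and *Cox6c* at 0.12 on the relative scale (both adjusted p = 0.896). The MI effect in caPI3K minus that in dnPI3K hearts was the widest gap. It was above 0 for 48 of 48 genes, with a median of 0.25 and 26 genes at an unadjusted p under 0.05, where 1501 of 14763 genes were. This median was 0.19 without arrays 415 to 418 and 0.08 after quantile normalization. Non-members above the 99th percentile of signal had a log2 median of 0.23, against 0.25 for the respiratory genes in that band. Relative to equally bright genes the median was 0.09 (0.13 with the 500 nearest genes), with 41 of 48 above 0 and 10 at an unadjusted p under 0.05. *Atp5g2* stood at 0.48 (adjusted p = 0.171) and 0.33 on the relative scale (adjusted p = 0.14), *Cox7a1* at 0.46 (adjusted p = 0.171) and 0.26 (adjusted p = 0.237), and *Cox8b* at 0.44 (adjusted p = 0.171) and 0.24 (adjusted p = 0.199). With only these 4 groups in the model, 2 of the 48 were called. The 3 differences share their groups and are not independent of one another.

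Without MI, the genotypes were compared among sham hearts. The respiratory genes of dnPI3K and Ntg sham hearts stood at about the same level, with a median difference of -0.02 (dnPI3K minus Ntg; 0.06 without arrays 415 to 418), none called (1.14% of all genes were) and 1 at an unadjusted p under 0.05. Relative to equally bright genes the median was also -0.02, none was called (1.35% of all genes were) and 3 had an unadjusted p under 0.05. *Uqcrc1* was at -0.22 (adjusted p = 0.115) and *Atp5g2* at 0.17 (adjusted p = 0.148) on that scale. For *Uqcrc1* the arrays read 14.85, 14.65, 14.56 and 14.51 in Ntg and 14.60, 14.26, 14.38 and 14.43 in dnPI3K sham hearts, overlapping in part.

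In caPI3K sham hearts the respiratory genes stood lower than in Ntg sham hearts by a median of 0.19, written as a change of -0.19 (12.5% lower), and none was called (0.278% of all genes were). Without arrays 415 to 418 the median was -0.04, and after quantile normalization it was -0.02. An unadjusted p under 0.05 was found for 26 of them, 16 of these in complex V. Non-members above the 99th percentile of signal had a log2 median of -0.18, against -0.19 for the respiratory genes in that band. *Cox8b* was at -0.31 (adjusted p = 0.0823). On the relative scale the median was -0.04 (-0.09 with the 500 nearest genes), none was called (0.332% of all genes were) and 9 had an unadjusted p under 0.05. Without Ntg sham 4, 8 genes were called lower on the log2 scale and 3 on the relative scale. The Ntg sham arrays hold the high arrays 1 and 2, and with Y-linked signal on 3 caPI3K sham arrays, genotype and sex cannot be told apart here.

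Set directly against dnPI3K sham hearts, caPI3K sham hearts had lower levels of a set of complex V genes. With Y-linked signal on 3 caPI3K sham arrays and on no dnPI3K sham array, genotype and sex cannot be told apart here either. Of the 48 genes 7 were called lower (9.9% of all genes were called, 4.52% lower), with a median difference of -0.18 (-0.10 without arrays 415 to 418 and -0.01 after quantile normalization). They were *Atp5g2* (-0.37, adjusted p = 0.00672), *Atp5e* (-0.36, adjusted p = 0.0296), *Atp5mpl* (-0.32, adjusted p = 0.0093), *Atp5j* (-0.31, adjusted p = 0.0178), *Atp5j2* (-0.29, adjusted p = 0.0415), *Uqcrh* (-0.30, adjusted p = 0.0329) and *Cox6c* (-0.27, adjusted p = 0.0319). In 19 genes the groups did not overlap, 11 of them in complex V and all lower in caPI3K hearts, as for 7.97% of all genes. *Atp5g2* read 14.70, 14.56, 14.44 and 14.50 in dnPI3K sham hearts and 14.22, 14.15, 14.16 and 14.19 in caPI3K sham hearts, so all caPI3K arrays were lower. With the mean of its 3 probe sets in place of the brightest, the log2 difference of *Atp5g2* was -0.08 and not called.

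Relative to equally bright genes the median difference was -0.05 (-0.02 with the 50 nearest genes and -0.09 with the 500 nearest). Non-members above the 99th percentile of signal had a log2 median of -0.17, against -0.19 for the respiratory genes in that band. On the relative scale, 5 were called lower and 1 higher in caPI3K sham hearts (10.4% of all genes were called, 4.84% lower and 5.55% higher). *Atp5g2* (-0.29, adjusted p = 0.000829) and *Atp5mpl* (-0.23, adjusted p = 0.00306), a small protein of the membrane part, were called with any single array left out. *Atp5e* (-0.25), *Atp5j* (-0.16) and *Uqcrh* (-0.15) were the other 3 lower genes, called in 3, 7 and 1 of the 8 fits that leave out an array. *Uqcrc1* was higher in caPI3K hearts by 0.25 (adjusted p = 0.0146), reading 14.54, 14.62, 14.55 and 14.53 against 14.60, 14.26, 14.38 and 14.43 on the log2 scale, where dnPI3K sham 1 overlapped. The count of 7 fell to 3 without arrays 415 to 418 (4.13% of all genes were called), and 2 were then called on the relative scale. It fell to 2 without dnPI3K sham 1 or caPI3K sham 2. With a term for array numbers under 1000 it was 2 (7.17% of all genes), and without the filter 4 (7.48%). Dropping the 3 arrays with Y-linked signal left a single caPI3K sham array. The log2 differences were then -0.36 for *Atp5g2*, -0.26 for *Atp5e*, -0.27 for *Uqcrh* and -0.295 for *Cox6c*. Without caPI3K sham 2, 2 were called on the relative scale. In adipocyte markers, both measured genes were lower in caPI3K sham hearts (median -1.46), and the part of that in these differences was not tested.

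After MI, the caPI3K hearts stood slightly above the dnPI3K hearts, with a median difference of 0.08 (0.04 on the relative scale) over the 48 genes. On the log2 scale 42 of the 48 were above 0. Of the 48, 2 were called higher (4.23% of all genes were called, 2.92% higher), a share close to that of all genes. An unadjusted p under 0.05 was found for 11. Non-members above the 99th percentile of signal had a log2 median of 0.04, against 0.07 for the respiratory genes in that band. *Uqcrc1* read 13.94, 14.08, 14.10 and 13.83 in dnPI3K MI hearts and 14.22, 14.47, 14.36 and 14.32 in caPI3K MI hearts. The groups did not overlap, and the difference was 0.35 (adjusted p = 0.0133) and 0.30 relative to equally bright genes (adjusted p = 0.00801). The log2 difference was 0.30 and not called without dnPI3K MI 4, and 0.31 and not called without caPI3K MI 2, while on the relative scale it was called with any single array left out.

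The other called gene was the dim *Cox7b2* at 1.54 (adjusted p = 0.0335), where dnPI3K MI 2 overlapped the caPI3K values of 6.77, 6.64, 7.07 and 6.66. Without dnPI3K MI 4 or caPI3K MI 2 no respiratory gene was called on the log2 scale. Without arrays 415 to 418, none of which is in these groups, 4 were (4.22% of all genes were). On the relative scale 3 were called (4.31% of all genes were), the third being *Cox8b* at 0.16 (adjusted p = 0.0402), whose arrays read 14.93, 14.75, 14.84 and 14.78 in dnPI3K MI and 15.05, 15.09, 14.96 and 15.00 in caPI3K MI hearts, without overlap. *Cox8b* was called in 1 of the 8 fits that leave out an array, and *Cox7b2* in 1 on the log2 scale. Among the markers, 2 of 3 mesothelial, 2 of 4 smooth muscle and 1 of 7 fibroblast markers were called lower in caPI3K hearts after MI (1.31% of all genes were), and their part was not tested. In this comparison 9 of the 32 assembly factors were called higher in caPI3K hearts, as were 3 of the 44 complex I genes (2.92% of all genes were). On the relative scale 7 assembly factors were called higher and 1 lower, and 6 complex I genes were called higher (2.58% of all genes were called higher and 1.73% lower).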

How the data were processed

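The deposited values are signal intensities of 45101 probe sets on 24 arrays, which the submitters' processing notes attribute to MAS5, without a version. The trimmed mean (2% off each end) was 500.003 to 500.004 on every array, so no further normalization was applied. One tag of the caPI3K MI arrays is named for sham, but its text, the titles and the descriptions all say MI, and MI was used.

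The 64 control probe sets were left out. Of the rest, 34945 named 1 gene, 932 several and 9160 none; gene IDs of 34741 were in the RefSeq list, where 0 symbols differed. Probe sets had to exceed the 40th percentile of the array on 4 or more arrays, and the brightest stood for its gene, leaving 14763 genes. Values were taken as log2(signal + 11.26), so fold changes are on that scale, which understates the change of dim genes. A mean for each of 6 groups was fitted in limma 3.58.1 (R 4.3.3; lmFit, eBayes with a trend, 18 residual degrees of freedom) over all genes, for 10 comparisons, with Benjamini-Hochberg adjustment over 14763 genes; called means an adjusted p below 0.05. The relative scale takes away, on each array, the median deviation of the 200 genes nearest in mean log2 signal, the 48 respiratory genes left out. SE is the model's standard error.

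Genes named are, per complex, the 2 with the largest called change after MI in dnPI3K hearts, up to 2 called in other comparisons, all isoform groups, and the extreme genes on the relative scale; others were named after their values were seen. The respiratory genes, the lists and the rule were chosen with earlier results of these data known. The code was tested on simulated data. The number of arrays limits precision. Promoter windows of 250 bases came from RefSeq (GRCm38.p6). Plots used matplotlib 3.10.9 (Python 3.11.15). Alternatives were another pseudocount, no filter, quantile normalization, the mean of all probe sets, other sets of equally bright genes, a term for array numbers, only the groups compared, and leaving out arrays.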

Additional observations from a re-analysis of the deposited data

Results flagged for a closer look

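Within groups of 4 arrays, an array was singled out when its gap to the nearest other array was large against the range of its group. This was looked for in 204 groups (complex medians and named genes), of which chance singles out about 1 in 20, and 20 were found. Sham arrays of dnPI3K mice gave 4 of them. On dnPI3K sham 1, *Atp5e* read 14.96 (the others 14.66 to 14.67), *Cox4i1* 15.88 (15.60 to 15.64) and the complex V median on the relative scale was 0.097 (0.028 to 0.039), and on dnPI3K sham 3 *Cox7b2* read 6.49 (6.90 to 6.99).

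Among dnPI3K MI arrays, the complex IV median was -0.23 on array 2 (-0.12 to -0.105 on the others), *Atp5mpl* read 14.07 there (14.21 to 14.22), and the complex II median on the relative scale was -0.184 on array 4 (-0.095 to -0.082). Among Ntg MI arrays, array 1 had a complex II median of -0.149 (-0.023 to -0.003), *Sdha* at 14.10 (14.35 to 14.40) and *Cox6b2* at 7.56 (6.45 to 6.54); array 2 had *Atp5g3* at 15.35 (15.28 to 15.29), and array 4 a complex V median on the relative scale of -0.036 (-0.019 to -0.015).

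In caPI3K sham hearts, array 2 had relative medians of -0.042 for complex IV (-0.014 to -0.011) and -0.066 for complex V (-0.015 to -0.01), *Cox7a1* at 14.97 (15.01 on the others) and *Uqcrc1* at 14.62 (14.53 to 14.55). Array 3 had a relative complex II median of 0.022 (0.094 to 0.101) and *Sdha* at 14.35 (14.48 on the others), and array 4 *Cox8a* at 12.71 (12.60 to 12.61). On caPI3K MI 2 the relative complex II median was 0.024 (-0.083 to -0.069).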

How the results depend on the processing

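No called result reversed under the alternatives run. Uncalled medians near 0 did change sign: dnPI3K against Ntg sham hearts went from -0.02 to 0.06 without arrays 415 to 418 and ranged from -0.08 to 0.04 with 1 array left out, and MI in caPI3K hearts ranged from -0.08 to 0.01. After MI in Ntg hearts the count of called respiratory genes went from 0 to 1 with a model term separating array numbers under 1000 from the rest, and on the relative scale from 0 to 1 with the 500 nearest genes; leaving out 1 array gave 0 to 18, and 0 to 2 on the relative scale. After MI in dnPI3K hearts 33 became 15 with quantile normalization (8.56% of all genes were called) and 19 without arrays 415 to 418 (4.52%). On the relative scale 13 became 4 without those arrays. Leaving out 1 array gave 17 to 37, and 8 to 12 on the relative scale. The caPI3K minus dnPI3K difference of MI effects went from 0 to 2 with only the groups compared. For caPI3K against Ntg sham hearts, leaving out 1 array gave 0 to 8, and 0 to 3 on the relative scale. For caPI3K against dnPI3K sham hearts 7 became 4 without the filter (7.48% of all genes were called). It became 3 without arrays 415 to 418 (4.13%) and 2 with the term for array numbers (7.17%). On the relative scale 6 became 2 without arrays 415 to 418. Leaving out 1 array gave 2 to 9, and 2 to 5 on the relative scale. For caPI3K against dnPI3K MI hearts 2 became 4 without arrays 415 to 418 (4.22% of all genes were called) and 1 with only the groups compared. Leaving out 1 array gave 0 to 2, and 1 to 3 on the relative scale. The cause of these changes was not tested. Of the named genes' values under an alternative, 99 kept their side of the threshold and 32 lost the call. No paired analysis was possible because the array numbers are not shared between groups. The mean signals of *Cox7b2*, *Cox6b2* and *Cox4i2* were 96.2, 116 and 135, beside array medians of 103 to 151, which limits how well their changes were measured.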
